A study of Mus musculus with 6 samples.

Results

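The genes described here are 38 genes of glucose entry, glycolysis, lactate handling, pyruvate dehydrogenase control and the pentose phosphate pathway, with the hypoxia factor gene Hif1a. They were chosen by symbol, with a mean normalised count of at least 10 over the 6 libraries. All 38 of the 38 listed symbols met this, out of 13490 genes with such a mean and 24404 genes listed. Glycolysis breaks glucose down to pyruvate in the cytosol, and most of its steps can be carried out by several isoenzymes encoded by separate genes. Pyruvate is then either reduced to lactate and exported or oxidised by the pyruvate dehydrogenase complex in mitochondria, while the pentose phosphate pathway branches off from glucose 6-phosphate and yields NADPH and ribose. The liver is known for a division of labour: hepatocytes use the carrier GLUT2, the liver pyruvate kinase and the gluconeogenic phosphatase FBP1, whereas cells of other lineages rely mainly on GLUT1, hexokinases and the PKM pyruvate kinase.

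The libraries held RNA of biliary epithelial cells, which form the lining of bile ducts, from adult C57BL/6 mice after 1 week of injury with DDC (diethoxycarbonyl-dihydrocollidine), a compound that damages bile ducts. There were 3 Klf5 LKO libraries, from mice with the Alfp-Cre transgene (Tg/+) and homozygous floxed Klf5 (flox/flox), and 3 control libraries, from mice with homozygous floxed Klf5 and no Cre. All mice received DDC, and Alfp-Cre acts in the liver epithelial lineage, in hepatocytes as well as duct cells. The labels do not say whether each library stands for its own animal. The p-values below therefore cover only the spread among these libraries, some of which may be technical. An effect of Cre itself cannot be told apart from the loss of Klf5.

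Recovered reads ranged from 17161087 to 24784167 in Klf5 LKO libraries and from 11726934 to 20066745 in control libraries. Klf5, which codes for the deleted zinc-finger factor, had normalised counts of 977, 1192 and 1183 in Klf5 LKO libraries, against 2056, 2018 and 2316 in control libraries (log2 fold change -0.93, SE 0.14, adjusted p = 0.0103). These counts cover the whole gene and do not check the deleted part alone. Of the 10 biliary markers all were detected, led by Spp1, with 288036 to 357594 in Klf5 LKO libraries and 343625 to 456086 in control libraries, and Epcam, with 23402 to 26173 in Klf5 LKO libraries and 25301 to 28906 in control libraries. Among the other biliary markers, Tspan8 was lower (mean 6318 in Klf5 LKO and 10414 in control, adjusted p = 0.0265) and Sctr higher (1205 in Klf5 LKO and 701 in control, adjusted p = 0.0275). Krt19 and Krt7 had lower values and Cftr higher values in every Klf5 LKO library, without passing the test. Markers of dividing cells were lower in Klf5 LKO: their summed normalised count over 10 genes was 4692, 4904 and 4092, against 8498, 11552 and 7814 in control. The sum over 9 leukocyte markers was 2167, 517 and 429 in Klf5 LKO, against 3811, 1669 and 621 in control. In bulk libraries such as these, fewer cells of a type and less RNA per cell cannot be told apart.

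No gene of the pathway passed the test between Klf5 LKO and control. With limma on log2(normalised count + 1) over all 13490 genes, 0 of the 38 had an adjusted p below 0.05, against 0.652% of all genes tested. Unadjusted, 7 of the 38 had p below 0.05, all 7 lower in Klf5 LKO (18.4%, against 5.92% of all genes tested in this direction) and 0 higher (against 4.95%). The 7 were Slc2a2, Pfkfb3, Pkm, Tkt, Gapdh, Ldha and Hk2. Among other tools, edgeR called 0 (against 0.623% of all genes tested) and limma-voom 0 (against 0.549%). DESeq2 on the recovered reads called 4, all lower: Slc2a2, Pfkfb3, Pkm and Tkt. These 4 of 38 are 10.5%, against 1.60% of all genes called lower by DESeq2, which called 0 of the 38 higher (against 0.883%). The same 4 were the members with an adjusted p below 0.05 in the authors' deposited table, where 1.51% of genes were called lower and 0.903% higher. The authors' deposited table lists shrunken log2 fold changes of -0.62 for Slc2a2, -0.72 for Pfkfb3, -0.50 for Pkm and -0.46 for Tkt. Over the 38 genes the log2 fold changes had a median of -0.08, against -0.01 for all genes tested, and 23 of the 38 had a negative value (60.5%, against 50.8% of all genes tested).

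**Figure D1:**
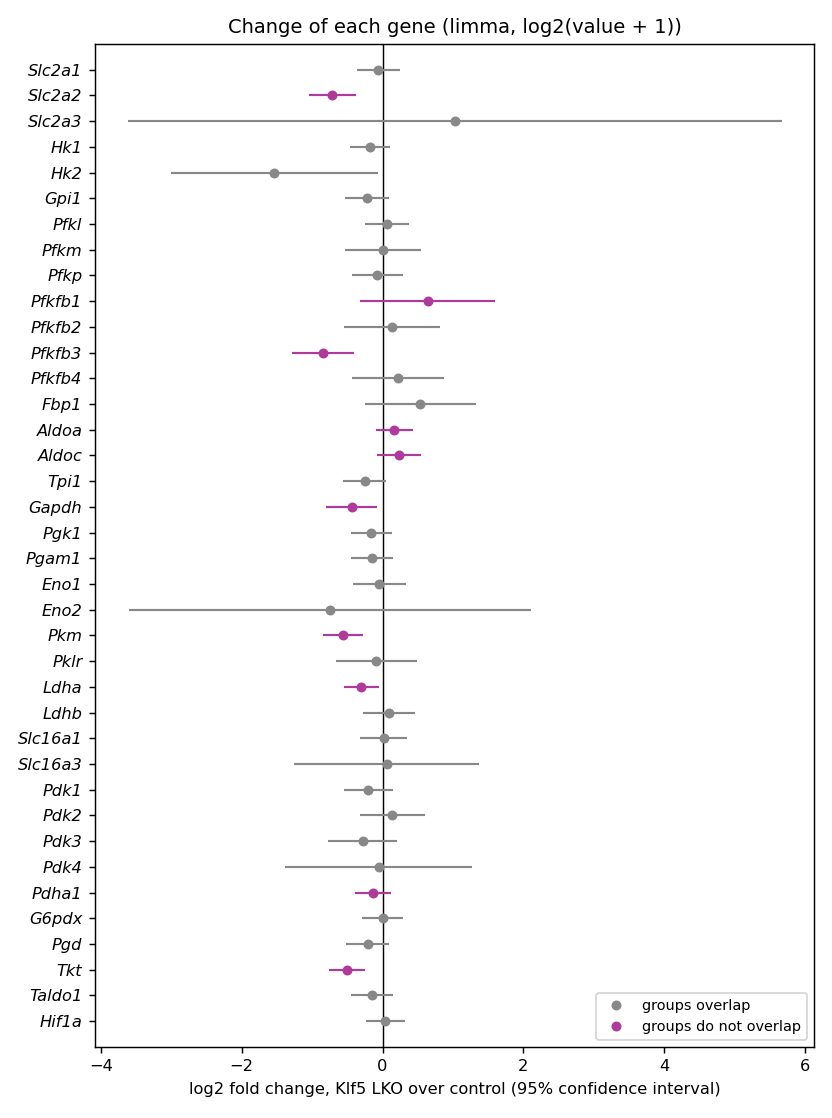
The log2 fold change of Klf5 LKO over control for each of the 38 genes, from top to bottom in pathway order, as points with 95% confidence intervals from limma on log2(normalised count + 1), coloured where the groups do not overlap. The points for Slc2a2, Pfkfb3, Pkm and Tkt lie between -0.85 and -0.50 with intervals below 0. The intervals of Hk2, Gapdh and Ldha also lie below 0. Most other points lie near 0.

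In 10 of the 38 genes the ranges of the groups were separate (26.3%, against 15.6% of all genes tested). In 7 of the 10 the Klf5 LKO libraries were lower (18.4%, against 7.88% of all genes tested): Slc2a2, Pfkfb3, Pkm, Tkt, Gapdh, Ldha and Pdha1. In the other 3, Aldoa, Aldoc and Pfkfb1, the Klf5 LKO libraries were higher (7.89%, against 7.72%). Aldoa and Gapdh, which act at neighbouring steps, thus stood on opposite sides.

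The 4 genes that DESeq2 called lie at separate points of the pathway: Slc2a2 at glucose entry, Pfkfb3 at the control of phosphofructokinase, Pkm at the last step of glycolysis, and Tkt in the pentose phosphate pathway. Their promoter windows, 250 bases before to 50 after the annotated start, are shown because DESeq2 called these genes, so the choice was made after their values were seen. They come from RefSeq on GRCm38.p6, and each is written 5′ to 3′ on the strand of the gene. Capitals mark matches on either strand to the KLF and SP type motif GGGNGNGG, to the hypoxia response cores ACGTG or GCGTG, or to the E-box CACGTG. The E-box contains an ACGTG core on each strand, and matches can overlap.
Slc2a2, chr3:28697653-28697952, plus strand: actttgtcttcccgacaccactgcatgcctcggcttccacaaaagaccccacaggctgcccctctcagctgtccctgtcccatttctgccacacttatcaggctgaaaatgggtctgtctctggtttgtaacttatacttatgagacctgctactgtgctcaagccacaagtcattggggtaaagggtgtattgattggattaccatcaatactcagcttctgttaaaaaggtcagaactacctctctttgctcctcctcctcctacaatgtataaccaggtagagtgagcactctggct
Pfkfb3, chr2:11502041-11502340, minus strand: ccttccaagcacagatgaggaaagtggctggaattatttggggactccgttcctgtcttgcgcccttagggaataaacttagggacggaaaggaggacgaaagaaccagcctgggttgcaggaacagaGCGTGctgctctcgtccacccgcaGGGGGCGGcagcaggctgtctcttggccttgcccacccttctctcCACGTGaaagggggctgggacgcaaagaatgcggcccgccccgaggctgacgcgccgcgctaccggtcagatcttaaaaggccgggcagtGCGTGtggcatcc
Pkm, chr9:59656326-59656625, plus strand: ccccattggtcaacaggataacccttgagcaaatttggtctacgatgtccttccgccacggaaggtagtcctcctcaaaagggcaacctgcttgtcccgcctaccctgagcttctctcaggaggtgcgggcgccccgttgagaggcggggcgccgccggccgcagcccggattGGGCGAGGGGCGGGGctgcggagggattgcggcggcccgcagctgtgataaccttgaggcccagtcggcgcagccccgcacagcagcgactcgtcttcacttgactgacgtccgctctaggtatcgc
Tkt, chr14:30548881-30549180, plus strand: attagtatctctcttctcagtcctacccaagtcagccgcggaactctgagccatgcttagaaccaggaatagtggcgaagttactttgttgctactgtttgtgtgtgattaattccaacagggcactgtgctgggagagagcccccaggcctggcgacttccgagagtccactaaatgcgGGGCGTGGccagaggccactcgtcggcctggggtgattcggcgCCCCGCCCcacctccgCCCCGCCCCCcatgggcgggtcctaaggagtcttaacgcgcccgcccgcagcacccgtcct
The window of Slc2a2 held no match to any of these motifs. That of Pkm held 2 overlapping matches to the KLF and SP type and no other. That of Tkt held 4 matches to the KLF and SP type and 1 to a GCGTG core, which lies inside one of them. That of Pfkfb3 held 1 match to the KLF and SP type, 2 to GCGTG and the E-box, which gives 2 ACGTG matches. Where a gene had several windows, the one with the most annotated starts nearby was used.

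Over all 32851 windows in the table, 49.5% held the KLF and SP type motif, 19.6% an ACGTG core, 32.4% a GCGTG core and 7.15% the E-box. Of the 38 genes, 37 had a window and Slc2a3 had none. The KLF and SP type motif was in 28 of the 37 windows (75.7%), the ACGTG core in 16 (43.2%), the GCGTG core in 20 (54.1%) and the E-box in 6 (16.2%). These shares and those of all windows are not on like terms. For the pathway genes only the chosen window was counted, and all had a mean of at least 10. All windows cover 27025 genes, whatever their level, and a gene can have several. The windows of the pathway were richer in G and C, with a median of 60.7% against 52.7% over all windows, and the motifs are themselves rich in G and C. A match is a description of the letters and not of a bound site.

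Glucose enters cells through facilitative carriers, and Slc2a1 (GLUT1), the carrier of most cell types, had the highest level of the 3 listed here. Slc2a1 had normalised counts of 2241, 3046 and 2437 in Klf5 LKO, against 2617, 2582 and 2785 in control (log2 fold change -0.06, 95% confidence interval -0.36 to 0.24). Its groups overlapped. Slc2a2 (chromosome 3, 28697903 to 28731359, plus strand, mm10), which codes for the low-affinity carrier GLUT2 known from hepatocytes and pancreatic beta cells, had 707, 606 and 588 in Klf5 LKO, against 1071, 977 and 1065 in control. Every Klf5 LKO library lay below every control library. The means were 633 ± 64.0 in Klf5 LKO, against 1038 ± 52.8 in control (SD, n = 3 each), which gave a log2 fold change of -0.71 (SE 0.15, interval -1.05 to -0.38, adjusted p = 0.0713). DESeq2 gave adjusted p = 0.00393, and limma passed without Klf5 LKO 1 (adjusted p = 0.0454) and when genes with a mean below 50 were left out before testing (adjusted p = 0.0478).

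Because hepatocytes also use Slc2a2, their markers were set beside it. The summed normalised count over 12 hepatocyte markers was 15310, 11561 and 15659 in Klf5 LKO, against 16833, 12456 and 14310 in control, so these groups overlapped. No marker was at 0 in all libraries, but 5 of the 12 (Apoa2, Serpina3k, Cps1, Ass1 and Tdo2) had a mean below 10, and the sum was led by Alb and Fgb. Alb had 6433, 6081 and 9205 in Klf5 LKO, against 7836, 7063 and 9665 in control. Slc2a3, the high-affinity carrier GLUT3 of neurons and leukocytes, had 60.8, 0 and 0 in Klf5 LKO, against 0, 6.32 and 0 in control. It reached the mean of 10 through Klf5 LKO 1 alone, and in the libraries at 0 a count of 3 reads would stand for at most 3.19 in Klf5 LKO, against 3.05 in control.

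**Figure D2:**
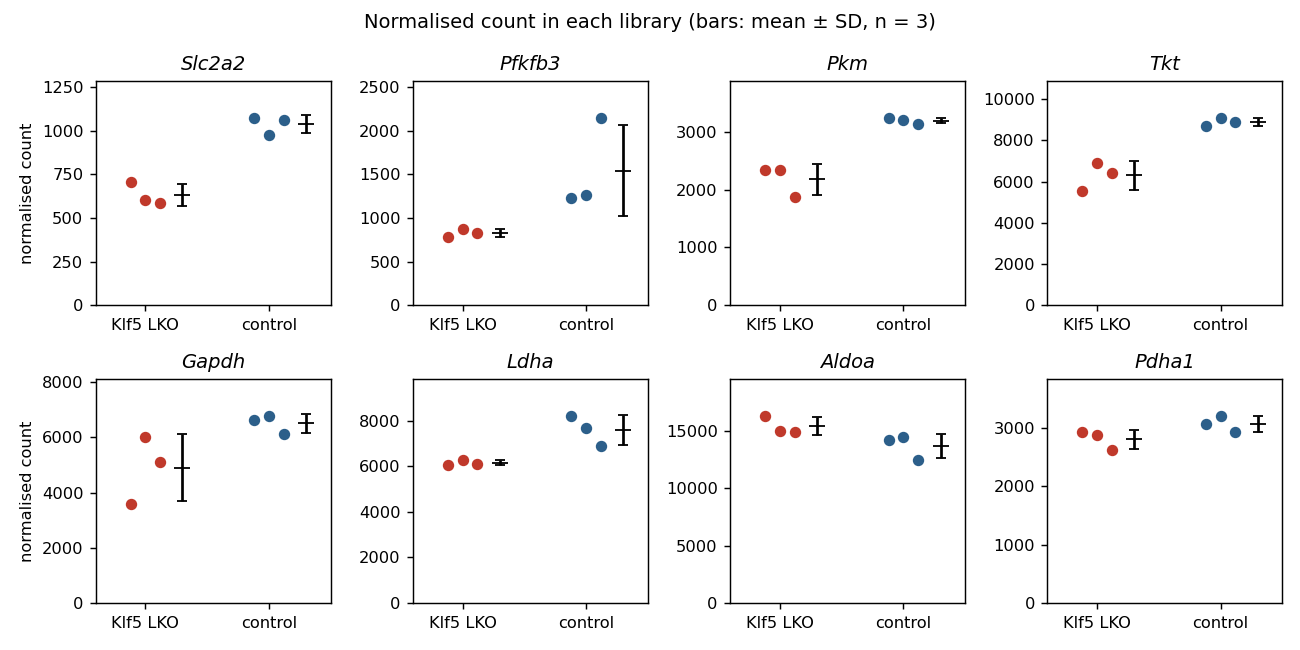
Normalised counts of 8 genes in each library, with Klf5 LKO at the left and control at the right of each panel (y axes start at 0); bars give the mean ± SD over 3 libraries. Klf5 LKO and control do not overlap in any of the 8 panels, with Klf5 LKO lower in 7 and higher for Aldoa, and the gap of Pdha1 is only from 2921 in Klf5 LKO to 2927 in control.

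Hexokinases trap glucose in the cell as glucose 6-phosphate. Hk1, the housekeeping form, had 1303, 1375 and 1257 in Klf5 LKO, against 1371, 1536 and 1557 in control (log2 fold change -0.18, interval -0.47 to 0.11). Hk2, the form known from muscle and many tumours, was low, with 8.22, 37.3 and 56.4 in Klf5 LKO, against 48.7, 96.4 and 101 in control. Its reads ranged from 10 to 99 per library. Klf5 LKO 3 lay above control 1, so the groups overlapped, and the log2 fold change of -1.53 had a wide interval, -3.00 to -0.07 (adjusted p = 0.436). Without Klf5 LKO 1 the value was -0.75. Gpi1, which turns glucose 6-phosphate into fructose 6-phosphate, had 3255 ± 552 in Klf5 LKO, against 3755 ± 335 in control (SD, n = 3 each; adjusted p = 0.634).

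Phosphofructokinase commits the sugar to glycolysis, and none of its 3 genes passed the test. Pfkl, the liver form, had a log2 fold change of 0.07 (interval -0.24 to 0.38), Pfkm, the muscle form, 0.01 (-0.53 to 0.55), and Pfkp, the platelet form, -0.07 (-0.43 to 0.28). The enzyme is activated by fructose 2,6-bisphosphate, whose level is set by the 4 bifunctional PFKFB enzymes. Pfkfb3 (chromosome 2, 11471433 to 11554077, minus strand), the form with a high kinase-to-phosphatase ratio, had 781, 873 and 827 in Klf5 LKO, against 1224, 1261 and 2141 in control. The groups did not overlap, and control 3 stood well above the other two control libraries. Its log2 fold change of -0.85 (SE 0.20, interval -1.29 to -0.41, adjusted p = 0.0985) became -0.59 without control 3 (adjusted p = 0.218), and DESeq2 over all libraries gave adjusted p = 0.00272.

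The other 3 members of that family had positive values with intervals that included 0. Pfkfb1, the liver form, had 73.9, 80.5 and 79.9 in Klf5 LKO, against 64.4, 30.0 and 63.0 in control, which did not overlap (log2 fold change 0.64, interval -0.32 to 1.60, and 0.29 without control 2). Pfkfb2 and Pfkfb4 had 0.13 (-0.55 to 0.82) and 0.22 (-0.43 to 0.87). Fbp1, the phosphatase that runs the phosphofructokinase step backwards in gluconeogenesis, had 251, 99.1 and 214 in Klf5 LKO, against 120, 123 and 118 in control. Klf5 LKO 1 and 3 were above all control libraries and Klf5 LKO 2 was below them (log2 fold change 0.54, interval -0.25 to 1.33, adjusted p = 0.643). Leaving out Klf5 LKO 1 gave 0.28, and leaving out Klf5 LKO 2 gave 0.94.

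Aldolase splits fructose 1,6-bisphosphate, and Aldoa was the gene of this pathway with the most counts. It had 16322, 15005 and 14917 in Klf5 LKO, against 14207, 14463 and 12517 in control, so that the lowest Klf5 LKO library was above the highest control library. The difference was small, with a log2 fold change of 0.17 (SE 0.12, interval -0.09 to 0.43, adjusted p = 0.657). Aldoc, the form known from brain, had 1189, 1368 and 1139 in Klf5 LKO, against 982, 1128 and 1025 in control, a log2 fold change of 0.23 (interval -0.08 to 0.55). Tpi1, which interconverts the triose phosphates, had 2106, 2939 and 2545 in Klf5 LKO, against 3210, 2913 and 2865 in control, with overlap between Klf5 LKO 2 and the 2 lower control libraries (log2 fold change -0.26, interval -0.56 to 0.05).

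The 5 genes of lower glycolysis all had negative values, from -0.75 for Eno2 to -0.04 for Eno1, with none past the test, although Eno2 was positive with edgeR (0.50) and DESeq2 (0.49) and Eno1 with a leukocyte term (0.0042). Gapdh, the dehydrogenase often used as a reference transcript, had 3602, 6008 and 5102 in Klf5 LKO, against 6646, 6772 and 6131 in control. The Klf5 LKO libraries were all lower, and they differed among themselves more than the control libraries did. The log2 fold change of -0.44 (SE 0.17, interval -0.81 to -0.08, adjusted p = 0.348) was -0.23 without Klf5 LKO 1, and DESeq2 gave adjusted p = 0.222. Pgk1 and Pgam1, which act next, had log2 fold changes of -0.16 (-0.45 to 0.13) and -0.15 (-0.44 to 0.15). Eno1, the enolase of most tissues, had 597, 672 and 577 in Klf5 LKO, against 660, 710 and 543 in control, and Eno2, the neuronal form, had 0 to 58.9 in Klf5 LKO and 11.95 to 31.6 in control.

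Some of these levels rest on reads that could also belong to other genes. Of the distinct 50-base words in the annotated transcripts of Pgk1, 53.9% also occur in transcripts of other genes, mainly the copy Pgk1-rs7. The share was 36.2% for Pgam1, 26.0% for Eno1, mainly in the copy Eno1b, 25.1% for Gapdh and 25.8% for Pkm, against 0% for Slc2a2 and Tkt and 0.376% for Pfkfb3. A shared word can come from a copy elsewhere or from an annotated gene that overlaps at the same place. The count did not separate these. The sources used here do not give how such reads were assigned. The words come from all annotated transcripts of a gene and can outnumber the exon bases used for its level. Gapdh had 4598 words, 1155 of them shared, against 1495 exon bases, and Pgk1 had 2240 words against 1825 exon bases. The shares can thus understate how much of the counted exons is shared, and they do not rank the genes. The share was 20.99% for Ldhb, in the copy Gm5514, and 20.5% for Pklr, in the gene Hcn3. The levels of Pgk1, Pgam1, Eno1, Gapdh, Pkm, Ldhb and Pklr, and the family shares that use them, are thus uncertain. Other genes were not free of this, among them Pfkfb2 (17.3%), G6pdx (16.9%), Gpi1 (15.8%), Pdha1 (12.9%) and Ldha (9.26%). Among copies and relatives in the table, Gapdhs, the sperm form, had 118 ± 26.8 in Klf5 LKO, against 112 ± 14.1 in control, and Tktl1, a transketolase relative, had 9.16 ± 7.45 in Klf5 LKO and 12.4 ± 10.2 in control (SD, n = 3 each).

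**Figure D3:**
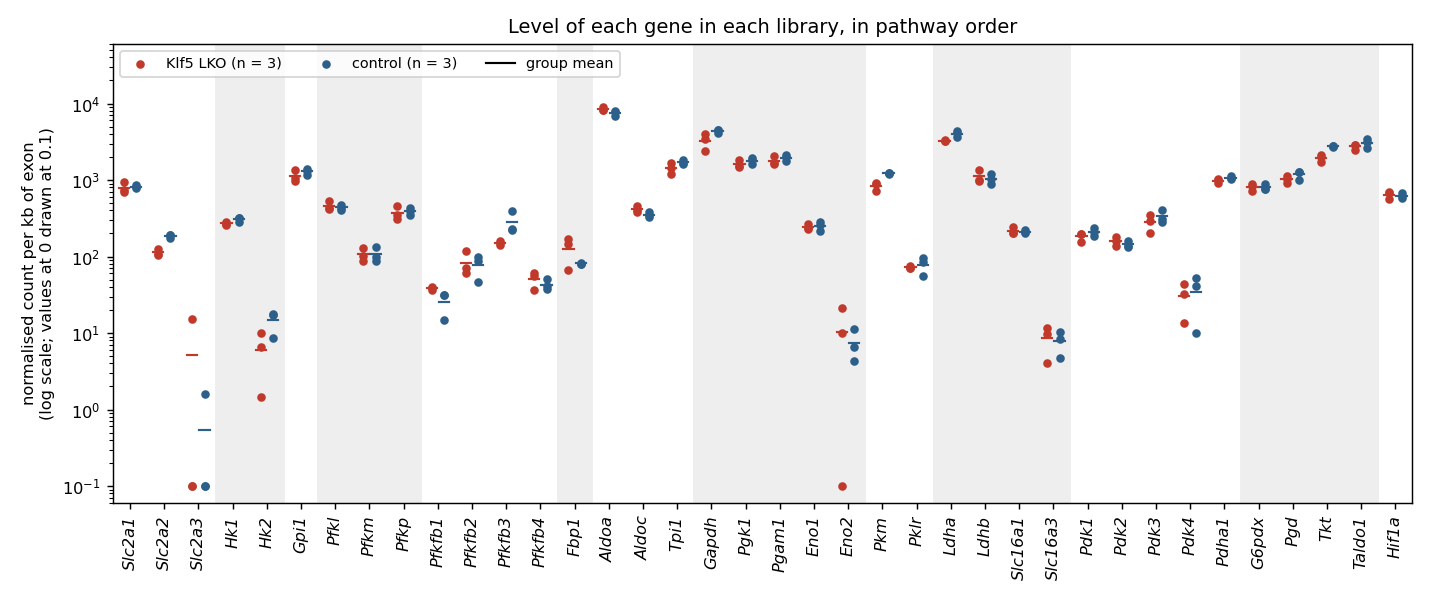
The level of each of the 38 genes as normalised count per kilobase of annotated exon (log axis, values at 0 drawn at 0.1), with 1 point per library and a line at the group mean; Klf5 LKO points stand left of control points. Aldoa is highest, with a mean of 8451 in Klf5 LKO, against 7527 in control, and Slc2a3, Hk2, Slc16a3 and Eno2 are lowest.

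Per kilobase of exon, which allows levels to be set beside each other, Aldoa led with 8451 ± 432 in Klf5 LKO, against 7527 ± 580 in control. Gapdh followed with 3280 ± 813 in Klf5 LKO and 4359 ± 227 in control, Ldha with 3243 ± 57.0 in Klf5 LKO and 4006 ± 351 in control, and Taldo1 with 2742 ± 211 in Klf5 LKO and 3058 ± 440 in control (SD, n = 3 each). The first 9 genes held the same ranks in both groups. At the other end, Hk2 had 6.05 ± 4.32 in Klf5 LKO, against 14.6 ± 5.13 in control. Eno1, at 242 ± 19.7 in Klf5 LKO, against 250 ± 33.7 in control, was listed well below the steps before and after it, Pgam1 (1774 ± 235 in Klf5 LKO, 1960 ± 193 in control) and Pkm (840 ± 103 in Klf5 LKO, 1230 ± 17.8 in control).

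Pyruvate kinase makes the ATP-yielding final step. Pkm (chromosome 9, 59656368 to 59679375, plus strand), the form of most cells other than hepatocytes, had normalised counts of 2340, 2337 and 1873 in Klf5 LKO, against 3233, 3211 and 3145 in control. The control libraries lay within a narrow band and all Klf5 LKO libraries lay below it. The means were 2183 ± 269 in Klf5 LKO, against 3196 ± 46.2 in control (SD, n = 3 each), which gave a log2 fold change of -0.56 (SE 0.13, interval -0.84 to -0.28, adjusted p = 0.0935), and DESeq2 gave adjusted p = 0.00526. Gene counts do not separate the PKM1 and PKM2 splice forms. Pklr, the liver and red cell form, had 214, 228 and 216 in Klf5 LKO, against 292, 254 and 171 in control, which overlapped (log2 fold change -0.09, interval -0.66 to 0.49).

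Lactate dehydrogenase reduces pyruvate to lactate. Ldha, the muscle-type subunit, had 6075, 6270 and 6091 in Klf5 LKO, against 8201, 7692 and 6884 in control, with no overlap. The log2 fold change was -0.30 (SE 0.12, interval -0.55 to -0.05, adjusted p = 0.350), and it stayed between -0.37 and -0.24 whichever library was left out. Ldhb, the heart-type subunit, had 1771, 1322 and 1265 in Klf5 LKO, against 1563, 1173 and 1346 in control, which overlapped (0.09, interval -0.28 to 0.46). The lactate carriers Slc16a1 (MCT1) and Slc16a3 (MCT4) had log2 fold changes of 0.01 (-0.31 to 0.34) and 0.06 (-1.26 to 1.38), and Slc16a3 was low, with 18.1 to 52.2 in Klf5 LKO and 21.2 to 45.8 in control.

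The use of isoenzyme genes was compared within each library as a share of the family's counts per kilobase, as a description with no test. Slc2a1 took 82.9%, 89.6% and 87.6% of the 3 hexose carriers in Klf5 LKO, against 80.7%, 81.7% and 81.7% in control, and Slc2a2 took 15.3%, 10.4% and 12.4% in Klf5 LKO, against 19.3%, 18.1% and 18.3% in control. The share of Slc2a2 was thus lower in every Klf5 LKO library. Ldha took 70.2%, 76.5% and 76.8% of lactate dehydrogenase in Klf5 LKO, against 78.3%, 81.9% and 77.9% in control, again without overlap. Pkm took 92.7%, 92.3% and 91.0% of pyruvate kinase in Klf5 LKO, against 92.9%, 93.7% and 95.6% in control, where the gap between groups was a fraction of a percentage point.

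**Figure D4:**
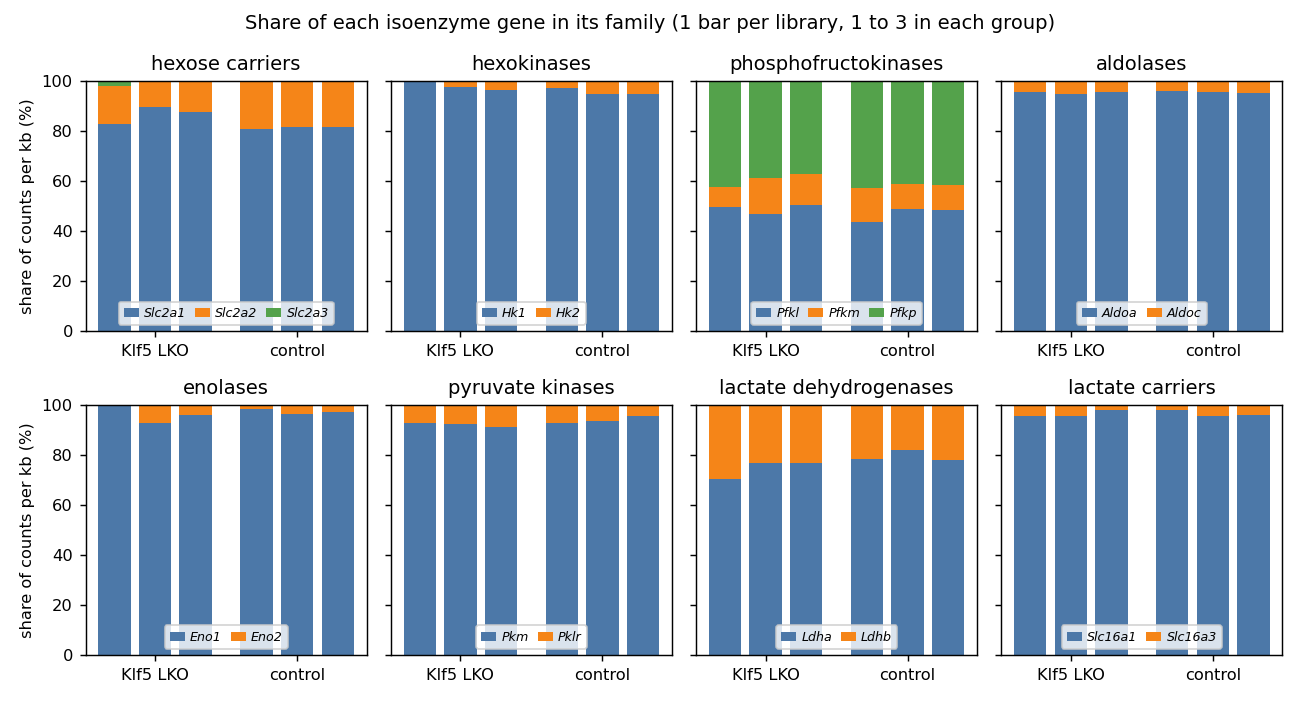
Stacked bars of the share (%) of each isoenzyme gene in its family, from counts per kilobase of exon, with 1 bar per library, the 3 Klf5 LKO libraries at the left and the 3 control libraries at the right. Among the genes drawn, one takes most of each family except phosphofructokinase (Hkdc1, a further hexokinase family gene, is not drawn), and the Slc2a2 part of the hexose carriers is smaller in the Klf5 LKO bars.

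In the other 5 families the shares of the groups overlapped. Hk1 took 97.8 ± 1.60% of Hk1 and Hk2 together, with Hkdc1 left out, in Klf5 LKO, against 95.5 ± 1.29% in control (SD, n = 3 each). Aldoa took 95.3 ± 0.539% of its family in Klf5 LKO, against 95.5 ± 0.367% in control, Eno1 took 96.1 ± 3.71% in Klf5 LKO and 97.2 ± 1.15% in control, and Slc16a1 took 96.3 ± 1.52% in Klf5 LKO and 96.5 ± 1.17% in control. Phosphofructokinase was divided between Pfkl, with 48.9 ± 1.89% in Klf5 LKO, against 46.9 ± 2.76% in control, and Pfkp, with 39.5 ± 2.74% in Klf5 LKO and 41.7 ± 0.875% in control, while Pfkm held the rest.

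Pyruvate dehydrogenase links glycolysis to the citric acid cycle and is switched off by the PDK kinases. Pdha1, its catalytic subunit, had 2921, 2874 and 2614 in Klf5 LKO, against 3067, 3199 and 2927 in control, a small difference (log2 fold change -0.13, interval -0.39 to 0.13, adjusted p = 0.750). Pdk1, Pdk2 and Pdk3 had log2 fold changes of -0.20 (-0.55 to 0.15), 0.14 (-0.32 to 0.60) and -0.28 (-0.77 to 0.21). Pdk4, the form induced by fasting, varied widely within groups, with 113, 47.7 and 154 in Klf5 LKO, against 34.9, 145 and 182 in control.

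Of the 4 pentose phosphate genes, Tkt (transketolase) was the only one whose groups did not overlap. Tkt (chromosome 14, 30548359 to 30574720, plus strand), which exchanges carbon units between sugar phosphates in the non-oxidative branch, had 5539, 6926 and 6436 in Klf5 LKO, against 8701, 9073 and 8919 in control. All Klf5 LKO libraries lay below all control libraries. The means were 6300 ± 703 in Klf5 LKO, against 8898 ± 187 in control (SD, n = 3 each), which gave a log2 fold change of -0.50 (SE 0.12, interval -0.77 to -0.24, adjusted p = 0.0979), and DESeq2 gave adjusted p = 0.00329. Taldo1, the transaldolase of the same branch, had 3408, 3907 and 3905 in Klf5 LKO, against 4725, 4256 and 3533 in control, which overlapped (-0.15, interval -0.45 to 0.15). For the oxidative branch, G6pdx, the entry dehydrogenase, had 0.00 on the log2 scale (-0.29 to 0.30) and Pgd, the second dehydrogenase, -0.21 (-0.51 to 0.10).

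Hif1a, the hypoxia factor known to raise transcription of many glycolytic genes, had 3110, 3746 and 3634 in Klf5 LKO, against 3322, 3670 and 3196 in control. The groups overlapped, and the log2 fold change was 0.04 (interval -0.23 to 0.31). A list of 21 further hypoxia factors and targets, all tested, had 0 genes past the test in either direction, and the median of its log2 fold changes was -0.30, against -0.01 over all genes tested. Its smallest p-values were those of Egln3, an oxygen-sensing prolyl hydroxylase, Vegfa, the vascular growth factor, and Epas1 (HIF2A). Egln3 had 161 ± 34.7 in Klf5 LKO, against 280 ± 7.82 in control (SD, n = 3 each; adjusted p = 0.232), Epas1 had 763 ± 115 in Klf5 LKO and 1051 ± 276 in control (adjusted p = 0.449), and Vegfa had 2333 ± 100 in Klf5 LKO and 1897 ± 109 in control (adjusted p = 0.393). Vegfa was thus higher in Klf5 LKO where Egln3 and Epas1 were lower, and in each of these 3 genes the groups did not overlap. Over the list, 2 genes were higher and 5 lower in Klf5 LKO without overlap (33.3% of the 21, against 15.6% of all genes tested).

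The list of sugar-sensing and growth regulators had 13 genes, all tested, with 0 past the test and a median of 0.01. Mycn, a MYC family factor, had 40.3, 64.8 and 56.4 in Klf5 LKO, against 128, 199 and 491 in control. Its groups did not overlap, and the log2 fold change was -2.11 (SE 0.46, interval -3.12 to -1.10, adjusted p = 0.0732). Myc, which drives glycolytic genes in many dividing cells, had 1979, 1909 and 1918 in Klf5 LKO, against 1172, 1067 and 1656 in control, higher in every Klf5 LKO library (log2 fold change 0.60, interval 0.24 to 0.96, adjusted p = 0.162). DESeq2 called both, with adjusted p = 0.000140 for Mycn and 0.0488 for Myc, whereas the authors' deposited table did not call Myc. Gckr, the glucokinase regulator, had 142 ± 51.0 in Klf5 LKO, against 56.9 ± 42.6 in control (SD, n = 3 each; adjusted p = 0.309).

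The remaining pathway lists also had 0 genes past the test in either direction. Of 19 other glycolysis and gluconeogenesis genes, 14 were tested (median of the log2 fold changes 0.06), and the smallest p-values were those of Pcx (pyruvate carboxylase, -0.49), Eno3 (muscle enolase, 0.55) and G6pc3 (glucose 6-phosphatase, 0.22). Of 13 other carriers, 10 were tested (median 0.09), led by the mitochondrial pyruvate carrier subunit Mpc2 (-0.23), the hexose carrier Slc2a8 (0.27) and the monocarboxylate carrier Slc16a7 (0.45). All 7 other pyruvate dehydrogenase genes were tested (median -0.08), with the phosphatases Pdp1 at 0.59 and Pdp2 at -0.58 and the subunit Pdhb at 0.19 (adjusted p = 0.418 for Pdp1, the smallest of the 3). Of 12 other pentose phosphate genes, 11 were tested (median -0.08), with Prps2 at -0.30, Shpk at -0.59 and Pgls at -0.23, and of 13 glycogen genes 12 were tested (median 0.06), with the phosphorylases Pygl at 0.50 and Pygb at -0.27 and the kinase subunit Phkg2 at 0.52. Over all 7 lists, 88 of 98 genes were tested, 4 were higher and 4 lower at an unadjusted p below 0.05 (4.55% lower, against 5.92% of all genes tested), and DESeq2 called Myc and Mycn alone (1.14% lower, against 1.60%). These 2 shares of lower genes, pooled over the lists, are below those of all genes. DESeq2 called 1.14% higher, against 0.883%. The pooled share of genes without overlap was slightly above that of all genes, with 15 of the 88 (17.0%, against 15.6%). Of these 15, 8 were lower (9.09%, against 7.88%) and 7 higher (7.95%, against 7.72%) in Klf5 LKO. Single lists can depart from the pool. Of the 13 sugar-sensing and growth regulators, 4 had an unadjusted p below 0.05, 2 higher and 2 lower (30.8%, against 10.9% of all genes tested). In 4 of these 13 the groups did not overlap (30.8%, against 15.6%).

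The differences of the 4 DESeq2-called genes went beside lower leukocyte and proliferation markers and shifts of biliary markers in Klf5 LKO. In 5 of the 10 biliary markers the groups did not overlap (50%, against 15.6% of all genes tested). Their log2 fold changes were -0.74 for Krt19, -0.63 for Krt7, -0.73 for Tspan8, 0.58 for Cftr and 0.78 for Sctr. Limma called Tspan8 and Sctr, against 0.652% of all genes tested. DESeq2 called 3 lower (against 1.60%) and 2 higher (against 0.883%). All 9 leukocyte markers had lower means in Klf5 LKO, 0 passed the test and their summed levels overlapped. With the mean log2 value of the 9 leukocyte markers as a term in limma, the log2 fold changes were -0.67 for Slc2a2, -1.06 for Pfkfb3, -0.53 for Pkm and -0.56 for Tkt. Pfkfb3 then passed (adjusted p = 0.0256), as did 0.460% of all genes tested, and the other 3 did not, with adjusted p = 0.131, 0.151 and 0.0852. All 10 proliferation markers had lower means in Klf5 LKO and 5 of them passed the test, against 0.652% of all genes tested. Among these 5 was Mki67, with 1237, 1285 and 1058 in Klf5 LKO, against 2148, 2911 and 1842 in control. The part of the proliferation and biliary markers in the values of the pathway genes was not tested. Of the 8 stellate and fibroblast markers, Col1a2, Col3a1, Lrat and Des were at 0 in every library, and the summed counts were 31.9 to 86.3 in Klf5 LKO, against 14.7 to 49.8 in control. The sums over 8 endothelial markers were 90.4 to 219 in Klf5 LKO and 96.6 to 442 in control. Of these markers Pecam1 did not overlap, with 0, 6.71 and 1.06 in Klf5 LKO, against 37.7, 19.0 and 34.5 in control (adjusted p = 0.231).

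**Figure D5:**
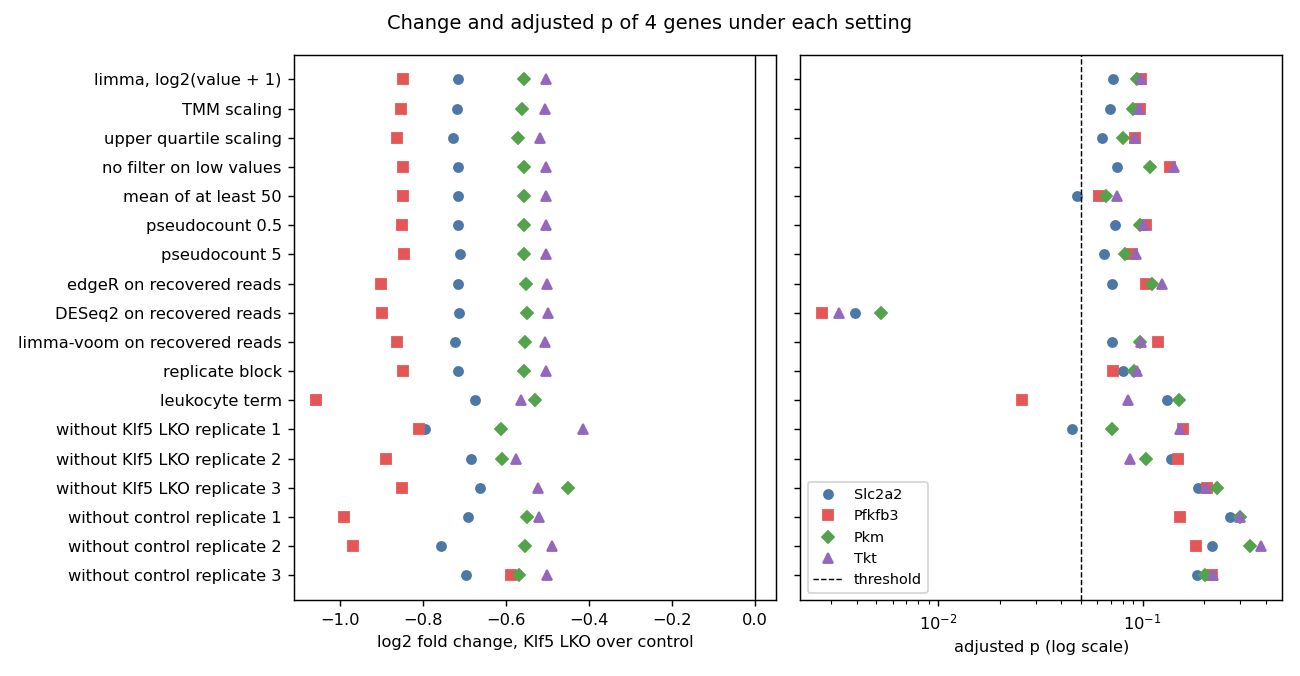
The log2 fold change of Klf5 LKO over control (left) and the adjusted p (right, log axis, dashed line at the threshold of 0.05) of Slc2a2, Pfkfb3, Pkm and Tkt under limma and each of 17 other settings. All points on the left lie below 0, from -1.06 to -0.41, while on the right all 4 genes pass with DESeq2 and 1 gene passes in 3 other settings.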

How the data were processed

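RNA-seq libraries of biliary epithelial cells, 3 Klf5 LKO and 3 control, were compared, with groups taken from the sample titles. Per the labels' protocols, each library began with 4 ng of total RNA and had 10 pre-amplification cycles and then 7 PCR cycles for enrichment, so reads are not independent molecules. The submitters' processing notes name TopHat, Bowtie2, DESeq2 and the mm10 build. The counter, the annotation and whether strand was used: not given in the sources used here. The authors deposited a signal per gene and library, namely a count scaled by the size factor of its library, and whole reads were recovered in 100% of values (tolerance 0.001). The authors' deposited table of the comparison gives mean signal, log2 fold changes with standard errors, a Wald statistic (a score), and p-values before and after adjustment.

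The main test was limma 3.58.1 (lmFit, eBayes with trend) in R 4.3.3 on log2(value + 1), restricted to 13490 genes whose mean was 10 or more. It was two-sided, with Benjamini-Hochberg adjustment over all of them and a threshold of 0.05. Fold changes are on that scale, where those of low genes can be smaller or larger than with the count tools. Slc2a3 had 1.03, against 3.45 with edgeR and 3.29 with DESeq2. Hk2 had -1.53, against -1.27 with both. Where no tool is named, an adjusted p is limma's. The alternatives were TMM and upper quartile scaling, other filters and pseudocounts, edgeR 4.0.16, DESeq2 1.42.0 and limma-voom on the recovered reads, a replicate block, a leukocyte term and leaving out each library. The tests were checked on simulated data. Exon lengths and positions are from GENCODE M21 (GRCm38), where all 38 genes matched. Aldoa has a second gene ID there, and the one with more transcripts was used.

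The members and lists were chosen with earlier results of these data known. Beside the 38 genes, the text names up to 3 genes of each pathway list with the smallest p, the main markers of other cells and copies of members with a mean of at least 10. Counts of 3 reads in a library are taken as the limit that a count of 0 allows, for counting error only. One further list of marker genes is not reported here.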

Additional observations from a re-analysis of the deposited data

How the results depend on the processing

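With the 38 pathway genes, 0 were called by limma. This count was 1 at a mean of at least 50 (Slc2a2), 4 with DESeq2 and 1 with the leukocyte term (Pfkfb3), it ranged from 0 to 1 when 1 library was left out (Slc2a2 without Klf5 LKO 1), and it stayed 0 with the other settings. Of the other pathway genes 0 were called, against 1 at a mean of at least 50, 1 with the leukocyte term and 1 with the replicate block (Mycn each time) and 2 with DESeq2. Over all genes, 88 were called, against 335 with DESeq2 and from 14 to 105 when 1 library was left out (lowest without control 2; it was 24 when control 1, 53 when control 3 and 49 when Klf5 LKO 3 was left out). No other setting moved that count by more than 1.5 times. The scalings moved the median of all genes by less than 0.1 on the log2 scale. The signs of the 4 genes DESeq2 called did not change under any setting run. Signs changed for the genes below, and the cause was not tested. Pfkm became -0.0065 with upper quartile scaling, -0.0026 with edgeR and -0.0051 with voom, and G6pdx -0.00011 with TMM and -0.011 with upper quartile scaling. Eno2 became 0.50 with edgeR and 0.49 with DESeq2. With the leukocyte term, Pfkp became 0.072, Eno1 0.0042, Pklr 0.069, Slc16a1 -0.0062, Slc16a3 -0.047 and G6pdx -0.038. When 1 library was left out, signs changed for 14 genes, whose log2 fold changes ranged as follows, from the lowest to the highest: Slc2a1 (-0.19 to 0.035), Pfkl (-0.047 to 0.13), Pfkm (-0.15 to 0.19), Pfkp (-0.23 to 0.054), Pfkfb2 (-0.20 to 0.35), Eno1 (-0.16 to 0.037), Eno2 (-1.91 to 1.04), Pklr (-0.31 to 0.074), Ldhb (-0.063 to 0.19), Slc16a1 (-0.079 to 0.061), Slc16a3 (-0.25 to 0.51), Pdk4 (-0.78 to 0.43), G6pdx (-0.071 to 0.095) and Hif1a (-0.012 to 0.12).

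Whether the replicate numbers pair the libraries was not settled by these values. Deviations from the group means correlated by 0.18, -0.01 and 0.11 for numbers 1, 2 and 3. The value for number 1 was the highest of all pairs, but Klf5 LKO 2 correlated best with control 3 (0.14). With the number as a block in limma, 110 genes over the whole table and 0 of the 38 were called. Slc2a3 had no value at a mean of at least 50 or without Klf5 LKO 1, nor Eno2 and Slc16a3 at a mean of at least 50. With 3 libraries a group, the intervals set how closely each value is known.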

Other observations

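A pair of genes outside the list, chosen after their values were seen, act at the first steps of glucose use. Hkdc1, a hexokinase relative that neighbours Hk1 on chromosome 10, had 1555, 1793 and 1634 normalised counts in Klf5 LKO, against 1469, 1475 and 1773 in control. Per kilobase of exon this is 472 ± 34.5 in Klf5 LKO and 447 ± 49.5 in control, and for Hk1 270 ± 12.2 in Klf5 LKO and 307 ± 20.96 in control (SD, n = 3 each). Slc5a1, the sodium-coupled glucose carrier SGLT1 known from the apical membrane of bile duct cells, had 7101, 6979 and 5804 in Klf5 LKO, against 5422, 6521 and 6092 in control. The groups overlapped for both genes, with log2 fold changes of 0.08 (adjusted p = 0.881) and 0.14 (adjusted p = 0.754).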
